A study of Mus musculus with 19 samples.

Results

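Day 4 of blastoid culture was compared with day 3, over every gene of the deposited blastoid count table. Blastoids are aggregates of embryonic stem cells grown to resemble the blastocyst. The comparison uses 6 of the 19 libraries of the series, the 3 of day 3 and the 3 of day 4, which were found by the day in their labels. They were fitted with the other 9 blastoid libraries of days 1, 2 and 5, so that all 15 share an estimate of the spread. The cells were of the mouse embryonic stem cell line TT2, maintained on inactivated mouse embryonic fibroblasts (feeder cells). After 48 h of culture they were exposed for 6 h to 20 nM pladienolide B (PlaB), which inhibits splicing through SF3B, and blastoids were then grown in 3D microwells. The labels list every blastoid library as PlaB-treated, so days 3 and 4 share that exposure and differ in the day of culture. Polyadenylated RNA was read by Smart-seq2, a method built on PCR of full-length cDNA. Its reads carry no molecular identifiers, so intervals drawn from counts cover counting error only. The labels name no mutation or transgene, and they do not say whether replicates came from separate cultures. Values of p therefore measure only how far these samples spread, which may be technical.

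In the blastocyst, an outer epithelium called the trophectoderm encloses a fluid-filled cavity and an inner cell mass. Trophectoderm cells express simple keratins and transcription factors of the GATA and AP-2 families, seal their borders with tight junctions and desmosomes, and go on to form the placenta. The inner cell mass holds the epiblast, which expresses the pluripotency factors shared with embryonic stem cells, and the primitive endoderm. Epiblast cells make the growth factor FGF4, which signals through the MAP kinase ERK.

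The 6 libraries held between 4231669 and 7607021 counts, the fewest in day 3 library 3. That library stood apart. Mitochondrially encoded genes took 13.5% of its counts, against 5.50% and 4.71% in the other day 3 libraries and 4.34%, 6.71% and 4.03% on day 4. Levels of GC-rich genes (over 53.4% GC in their exons) relative to GC-poor genes (under 43.9%) also moved with the day. Each gene's log2 level was taken relative to its mean over all 15 libraries, and the median of GC-poor genes was set against that of GC-rich genes. The GC-rich minus GC-poor difference was -0.59, -0.71 and -1.41 on day 3, and 0.38, 0.28 and 0.53 on day 4. Markers of feeder fibroblasts moved as well. The summed level of 28 of them was 605, 791 and 1350 CPM (counts scaled to a common library size, with edgeR's trimmed mean of M values) on day 3 and 505, 291 and 280 on day 4. S100a4 and Tagln were at 0 in all 6 libraries. For these reasons the counts of the lists are also given with each library's GC trend removed and, separately, without day 3 library 3. In bulk RNA, fewer cells of a type and less RNA per cell cannot be told apart.

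The labelled sample type was checked against defining markers. The summed level of 10 trophectoderm markers was 57.9, 84.7 and 85.8 CPM on day 3 and 1020, 1090 and 986 CPM on day 4. On day 3 Cdx2 was at 0 in library 1 and Elf5 in libraries 2 and 3, and no marker of this list was at 0 on day 4. The 8 epiblast and stem cell markers summed to 1520, 1500 and 1620 CPM on day 3 and to 897, 924 and 1160 CPM on day 4. The 8 primitive endoderm markers summed to 52, 33.9 and 55.9 CPM on day 3 and to 42.2, 34.8 and 26.6 CPM on day 4. By these sums the 3 day 4 libraries lay above all day 3 libraries for trophectoderm markers and below them for epiblast markers. The ranges overlapped for primitive endoderm markers. Of the 8 epiblast markers, Pou5f1 was called higher on day 4. The summed level of 30 pluripotency genes overlapped between the days, with 22900, 16500 and 9790 CPM on day 3 and 12800, 9990 and 12000 CPM on day 4. Their median log2(CPM + 1) did not overlap: 6.62, 6.58 and 6.27 on day 3 and 6.2, 5.98 and 6.13 on day 4. Most of the trophectoderm sum on day 4 came from Krt18 and Krt8, and Cdx2, Gata3 and Eomes were not called higher. The median log2(CPM + 1) of the 10 trophectoderm markers was 2.17, 2.73 and 2.55 on day 3 and 5.00, 4.94 and 4.64 on day 4.

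**Figure D1:**
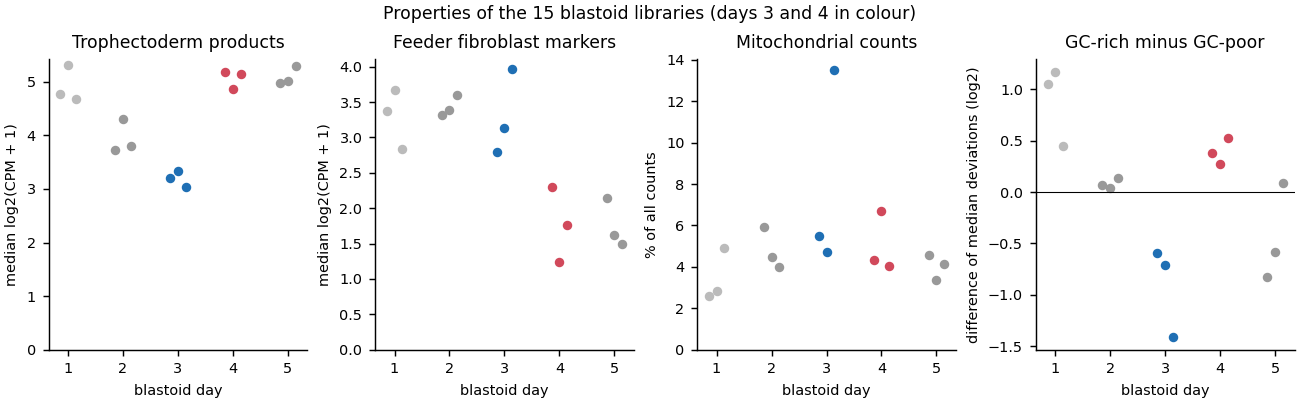
Properties of the 15 blastoid libraries by day (x axis, day of culture; day 3 blue, day 4 red, other days grey; 1 point per library). From left to right the y axes show the median log2(CPM + 1) of 29 trophectoderm and placental genes, that of 28 feeder fibroblast markers, the percent of counts from mitochondrially encoded genes, and the GC-rich minus GC-poor difference on the log2 scale. Day 3 library 3 holds the highest mitochondrial share (13.5%) and the lowest GC difference (-1.41).

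Of 15121 genes with enough counts to test, 2361 were higher on day 4 and 1863 lower at an adjusted p of at most 0.05 (edgeR quasi-likelihood test, Benjamini-Hochberg adjustment over all tested genes). That is 15.6% higher and 12.3% lower, or 27.9% in either direction. At least a 2-fold change was seen for 1852 of the higher and 1134 of the lower genes. The 3 day 4 libraries did not overlap the 3 day 3 libraries for 6385 genes (42.2%). The median log2 fold change over all tested genes was -0.04, and it was 0.10 when libraries were scaled by their total counts alone. Under that scaling 2880 genes were higher and 1293 lower.

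Calls followed GC content. Among genes under 43.9% GC, 2.24% were higher and 27.6% lower, with a median log2 fold change of -0.56. Among genes over 53.4% GC, 36.1% were higher and 2.56% lower, with a median of 0.80. Removing the GC trend of each library left 1493 higher genes (9.87%) and 1316 lower genes (8.70%), and 2157 of the 4224 original calls were made in the same direction. Without day 3 library 3, 2045 genes were higher (13.0%) and 1417 lower (9.01%). Counts of list members given below are to be read against the shares of the same setting. The count of lower genes was 1159 without day 4 library 2 and 956 without day 4 library 3.

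**Figure D2:**
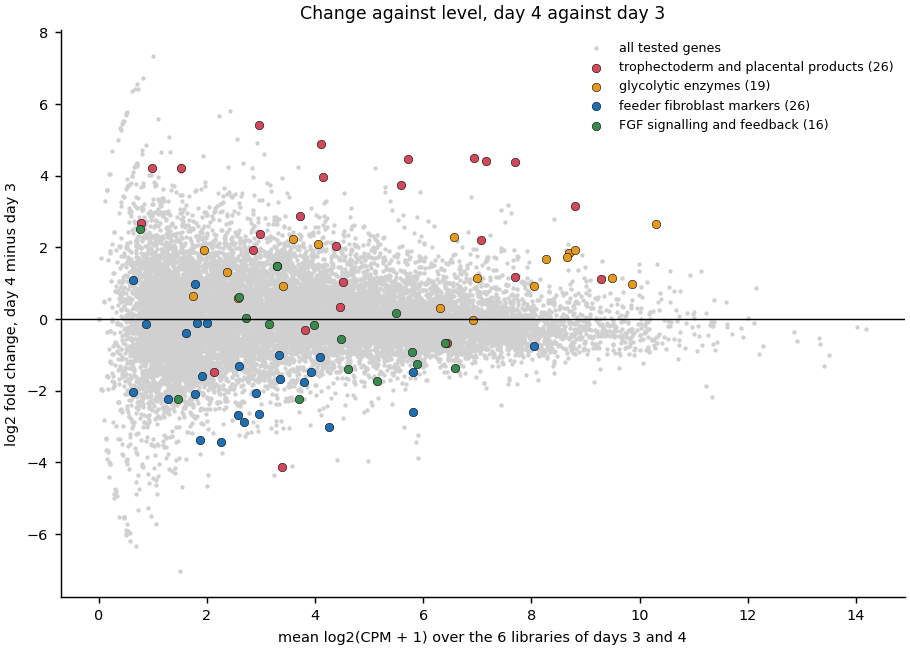
Change against level for all 15121 tested genes. The x axis is the mean log2(CPM + 1) over the 6 libraries, the y axis the log2 fold change of day 4 over day 3, and grey points are single genes. Coloured points are members of 4 gene lists: trophectoderm and placental products (red) lie mostly above 0 with a median of 2.54, glycolytic enzymes (orange) have a median of 1.33, and feeder fibroblast markers (blue) and FGF signalling genes (green) lie mostly below, with medians of -1.64 and -0.61.

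Genes of the trophectoderm and placenta were 6 of the 12 largest rises. Of 26 tested trophectoderm and placental products, 21 rose and 2 fell, with a median log2 fold change of 2.54 against -0.04 over all genes. With the GC trend removed 18 rose and 2 fell, and without day 3 library 3 the counts were 19 and 2. Krt18 and Krt8 encode the keratin pair of simple epithelia and lie next to each other on chromosome 15 (mm10, 102028180 to 102032027 and 101996698 to 102004482). Krt18 was at 21.3, 30.4 and 24.3 CPM in the day 3 libraries and at 555, 609 and 562 CPM in the day 4 libraries. Krt8 was at 8.28, 12.7 and 11.4 CPM on day 3 and at 232, 257 and 230 CPM on day 4. Each keratin had its 3 day 4 values close together and far above all of day 3. The log2 fold change was 4.50 ± 0.33 (SE) for Krt18 (22.7-fold, adjusted p = 4.17e-08) and 4.47 ± 0.34 for Krt8 (22.2-fold, adjusted p = 4.22e-08). Krt19, a keratin that forms filaments without the usual tail domain, went from 0.676, 0.904 and 0.695 CPM to 35.4, 28.2 and 38.1 CPM, a log2 fold change of 5.43 ± 0.45 (adjusted p = 9.38e-08). Day 3 was the low point of all 3 keratins over the culture: on day 2 Krt18 averaged 90.0 CPM and Krt8 30.0 CPM, and on day 1 they averaged 248 and 88.9 CPM. On day 5 they averaged 906 and 349 CPM. Exons of Krt8 overlap those of Gm36026 on the opposite strand over 5.16% of their length, and no source used here gives the strand setting of the counting.

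Upstream sequences are shown for Krt18 and Krt7, keratins of the list that rose, because they hold the AP-2 core GCCNNNGGC, a motif bound by a factor family of the trophectoderm. They were picked for holding it. Each run covers the 250 bases before the RefSeq transcription start (GRCm38.p6), Krt18 at chr15:102027966-102028215 and Krt7 at chr15:101412153-101412402, both on the plus strand, with the motif in capitals.
Krt18: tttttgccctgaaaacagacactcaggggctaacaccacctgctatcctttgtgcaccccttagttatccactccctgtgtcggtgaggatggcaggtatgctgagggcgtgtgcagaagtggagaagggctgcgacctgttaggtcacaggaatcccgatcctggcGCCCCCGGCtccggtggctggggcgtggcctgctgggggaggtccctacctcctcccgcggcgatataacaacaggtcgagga
Krt7: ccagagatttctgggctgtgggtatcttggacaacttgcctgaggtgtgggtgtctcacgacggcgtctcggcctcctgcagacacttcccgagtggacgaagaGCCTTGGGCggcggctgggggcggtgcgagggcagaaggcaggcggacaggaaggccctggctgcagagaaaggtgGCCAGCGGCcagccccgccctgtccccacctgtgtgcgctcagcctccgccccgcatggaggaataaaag
The match begins 83 bases before the Krt18 start, and the 2 matches of Krt7 begin 146 and 70 bases before its start. The motif reads the same on both strands. Among RefSeq promoter windows of the list, 7 of 25 held it (28.0%, 21 of the genes matched), against 13.7% of 32851 windows of all genes. It was also in 5 of 18 windows of feeder fibroblast markers (27.8%), a list that fell, and in 7 of 30 of glycolytic enzymes (23.3%). A match is a description of the letters and shows no binding.

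Other products of the list had day 4 values well apart from day 3. Plac1, an X-linked gene needed for placental growth, was at 2.20, 3.01 and 3.01 CPM on day 3 and at 93.0, 85.6 and 63.5 CPM on day 4 (log2 fold change 4.88 ± 0.40, adjusted p = 7.27e-08). Its mean on day 5 was 185 CPM. Rhox6, an X-linked homeobox gene of the placenta and germ line, was at 58.1, 41.6 and 35.9 CPM on day 3 and at 987, 894 and 970 CPM on day 4. Its close relative Rhox9 behaved alike (4.40 ± 0.35 on the log2 scale against 4.39 ± 0.33 for Rhox6), and reads of the 2 genes may be divided uncertainly between them. Lgals3, which encodes the lectin galectin-3, rose 13.3-fold. Fabp3, a fatty acid binding protein, averaged 158 CPM on day 3 and 1400 CPM on day 4. Krt7 rose by 3.98 ± 0.45 on the log2 scale. Large rises outside the list were those of Dkkl1 (4.91 ± 0.40), which encodes a secreted relative of the Dickkopf proteins, of Cyba (4.60 ± 0.44), a subunit of NADPH oxidase, and of Tinagl1 (4.34 ± 0.53), a matrix protein. The falling members were Prl2c2 (-4.14 ± 0.90, adjusted p = 0.00417), a secreted proliferin known from trophoblast giant cells and from growing fibroblasts, and Plac8 (-0.67 ± 0.22, adjusted p = 0.0308). Prl2c3, a near-identical copy of Prl2c2, fell with it, and reads of the pair cannot be divided with certainty.

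**Figure D3:**
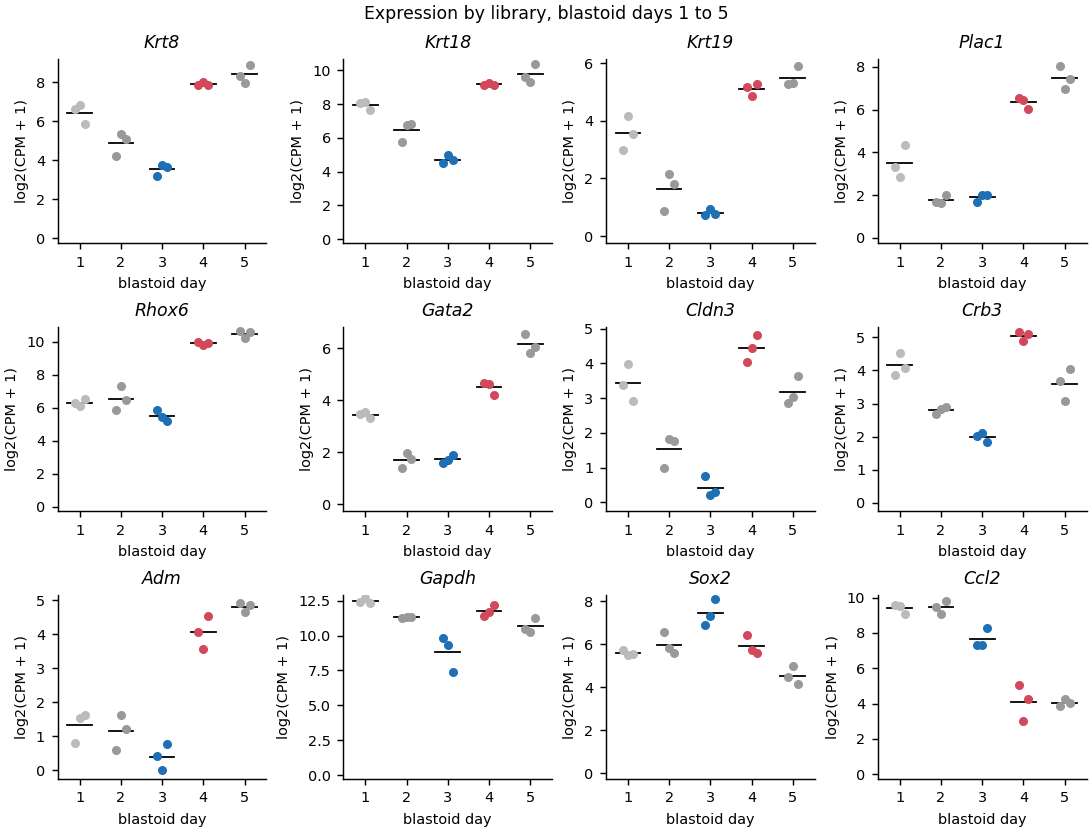
Level of 12 genes in each blastoid library, as log2(CPM + 1) on the y axis, by day of culture on the x axis. Each point is 1 library (day 3 blue, day 4 red, other days grey) and each bar the mean of 3. Krt8, Krt18, Krt19, Cldn3, Crb3 and Gapdh have their lowest mean on day 3, and Sox2 its highest, while Ccl2 falls from day 2 to day 4.

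Of 18 tested transcription factors of the trophectoderm, 9 rose and none fell (median log2 fold change 1.08). With the GC trend removed 6 rose and 2 fell, and the median was 0.49. Without day 3 library 3 the counts were 9 and 0. Gata2, a GATA factor of trophoblast, was at 2.03, 2.26 and 2.78 CPM on day 3 and at 24.2, 24 and 17.5 CPM on day 4 (3.22 ± 0.29, adjusted p = 3.36e-07). Id2, an inhibitor of basic helix-loop-helix factors, went from 87.2, 83.8 and 65.8 CPM to 292, 251 and 249 CPM (1.74 ± 0.20, adjusted p = 6.91e-06). Hand1, which drives trophoblast giant cell formation, was at 0, 0.904 and 0.232 CPM on day 3 and at 8.10, 8.71 and 13.2 CPM on day 4 (4.54 ± 0.69). None of these 3 overlapped between the days, as for 42.2% of all tested genes. Sox15 rose by 2.56 ± 0.34, Msx2 by 2.26 ± 0.32 and Dlx3 by 2.78 ± 0.64 on the log2 scale. Tfap2c, an AP-2 factor, rose by 1.07 ± 0.28 (adjusted p = 0.00842), and with the GC trend removed its adjusted p was 0.154.

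Several factors placed early in trophectoderm specification did not pass the test. Cdx2, the caudal-type factor of early trophectoderm, had too few counts to test: it was at 0, 0.151 and 0.927 CPM on day 3 and at 1.44, 0.680 and 0.723 CPM on day 4, and the days overlapped. Gata3 was at 6.42, 7.23 and 8.81 CPM on day 3 and at 12, 9.80 and 8.54 CPM on day 4 (0.44 ± 0.32, adjusted p = 0.307), with a mean of 31.8 CPM on day 5. Tead4, the partner of YAP, differed by -0.04 ± 0.38 (adjusted p = 0.943). Eomes differed by -0.65 ± 0.37 (adjusted p = 0.196), and its adjusted p was 0.0270 with the GC trend removed. A p that misses the threshold does not show that the levels were equal.

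Genes of the sealing epithelium rose together with the keratins. Of 23 tight and adherens junction genes, 14 rose and 1 fell (median 0.91). The counts were 13 and 1 with the GC trend removed, and 17 of 24 with none lower without day 3 library 3. Cldn3, a claudin of the tight junction strand and the largest of the 12 rises, was at 0.676, 0.151 and 0.232 CPM on day 3 and at 15.4, 20.7 and 27.3 CPM on day 4 (5.81 ± 0.54, adjusted p = 3.95e-07). Cldn7 went from 7.43, 7.08 and 9.73 CPM to 69.4, 66.1 and 72.6 CPM, and Cldn4 and Cldn6 rose by 3.00 ± 0.49 and 1.92 ± 0.33 on the log2 scale. Tjp3, a scaffold under the claudins, rose by 4.23 ± 0.57, and Rab25, an epithelial trafficking GTPase, by 3.28 ± 0.49. The scaffold Tjp1 was at 61.0, 75.3 and 123 CPM on day 3 and at 73.7, 71.3 and 55.1 CPM on day 4 (-0.37 ± 0.28, adjusted p = 0.336). The adhesion molecule Cdh1 (E-cadherin) was at 112, 158 and 381 CPM on day 3 and at 282, 223 and 184 CPM on day 4 (0.08 ± 0.31, adjusted p = 0.859). For Tjp1 and Cdh1 day 3 library 3 was the highest of the 6. Cxadr, a virus receptor of the tight junction, fell (-0.91 ± 0.31, adjusted p = 0.0352), and its adjusted p was 0.25 with the GC trend removed.

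Desmosomes anchor keratin filaments at cell borders. Of 8 tested desmosome genes 5 rose and none fell, with a median of 1.55, and 6 rose with the GC trend removed or without day 3 library 3. Dsp, the plaque protein that binds keratin, was at 6.42, 10.7 and 12.7 CPM on day 3 and at 46.3, 56.6 and 46.0 CPM on day 4 (2.33 ± 0.30, adjusted p = 2.08e-05). Perp, a desmosomal membrane protein that is also a p53 target, went from 20.1, 34.6 and 48.9 CPM to 149, 104 and 89.6 CPM (1.73 ± 0.28). Ppl, Pkp2 and Pkp3 rose by 1.88 ± 0.31, 1.36 ± 0.25 and 2.21 ± 0.43 on the log2 scale. The desmosomal cadherin Dsg2 differed by -0.05 ± 0.33 (adjusted p = 0.915).

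Among 17 apical polarity genes 6 rose and 1 fell (median 0.56), 6 rose and 2 fell with the GC trend removed, and 6 rose and 0 fell without day 3 library 3. Crb3, the small transmembrane anchor of the Crumbs complex, was at 3.04, 3.31 and 2.55 CPM on day 3 and at 34.6, 28.6 and 33.1 CPM on day 4 (3.41 ± 0.30, adjusted p = 2.18e-07). Its mean on day 5 was 11.6 CPM. Llgl2, a basolateral polarity protein, rose by 2.22 ± 0.32, and the atypical protein kinase C gene Prkcz by 1.69 ± 0.34. The related kinase gene Prkci differed by 0.02 ± 0.21 (adjusted p = 0.958). Of 13 tested genes that move ions and water into the cavity 3 rose and 1 fell (23.1% and 7.69%, against 15.6% and 12.3% of all genes). With the GC trend removed none rose and 1 fell, and without day 3 library 3 the counts were 1 and 1. The water channel Aqp3 was at 1.35, 3.01 and 1.85 CPM on day 3 and at 3.53, 6.12 and 5.64 CPM on day 4 (1.27 ± 0.42, adjusted p = 0.0302). Its adjusted p was 0.149 with the GC trend removed, and between 0.0619 and 0.102 without day 3 library 1, day 3 library 3, day 4 library 2 or day 4 library 3. The sodium pump subunit Atp1b1 differed by 0.37 ± 0.23 (adjusted p = 0.242), and the cotransporter Slc12a2 fell by 1.10 on the log2 scale (SE 0.27, adjusted p = 0.00592).

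Pluripotency genes did not move as a block. Of 30 naive and general pluripotency genes 6 fell, 3 rose and 21 did not pass the test, with a median of -0.30. With the GC trend removed 9 fell and 1 rose, and without day 3 library 3 the counts were 8 and 2. Sox2, a core factor of the epiblast, was at 117, 156 and 276 CPM on day 3 and at 84.5, 52.1 and 47.7 CPM on day 4 (-1.57 ± 0.32, adjusted p = 0.00132). Nr5a2, an orphan nuclear receptor, went from 50.8, 59.0 and 70.5 CPM to 24.6, 19.9 and 17.7 CPM (-1.53 ± 0.26). Neither overlapped between the days, as for 42.2% of all tested genes. Nr0b1 fell by 1.11 and the growth factor gene Fgf4 by 0.90 on the log2 scale, the latter with an adjusted p of 0.0534 without day 4 library 2. Nanog was at 162, 164 and 137 CPM on day 3 and at 89.9, 85.1 and 127 CPM on day 4 (-0.62 ± 0.22, adjusted p = 0.0411), and its adjusted p was 0.194 with the GC trend removed and between 0.0777 and 0.167 without library 1 or library 2 of either day. Esrrb, Tfcp2l1 and Dppa4 differed by -0.15 ± 0.24, -0.09 ± 0.19 and 0.04 ± 0.24, and none passed the test. Utf1, a chromatin protein of pluripotent cells, rose from 13.7, 12.4 and 4.87 CPM to 25, 44.4 and 60.6 CPM (2.04 ± 0.34). Utf1 counts in the list of trophectoderm and placental products too. Pou5f1 (Oct4) was called higher (1.13 ± 0.33, adjusted p = 0.0162) from 3.88, 4.07 and 3.01 CPM to 4.83, 9.80 and 9.69 CPM. Its adjusted p was 0.598 with the GC trend removed, 0.0710 without day 4 library 2 and 0.0741 without day 4 library 3. Its exons overlap those of Gm19553 on the opposite strand over 14.1% of their length, so its low level is uncertain.

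Formative pluripotency genes mark epiblast on the way to lineage entry. Of 15 tested, 5 fell (33.3%, against 12.3% of all genes) and 1 rose (median -0.38). With the GC trend removed 10 fell and none rose (median -0.96), and without day 3 library 3 the counts were 6 and 0. Zic5, a zinc finger factor, was at 63.0, 78.0 and 168 CPM on day 3 and at 34.4, 25.7 and 19 CPM on day 4 (-1.96 ± 0.34, adjusted p = 0.000364). Its mean had been 25 CPM on day 2. Lef1, a Wnt effector, went from 25.2, 28.9 and 24.3 CPM to 13.1, 10.5 and 8.10 CPM (-1.31 ± 0.27), and Foxd3 changed by -2.65 ± 0.68. The de novo methyltransferase Dnmt3a fell by 0.63 on the log2 scale (SE 0.21, adjusted p = 0.0309).

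FGF signalling genes fell more often than they rose. Of 16 tested members of that list 8 fell, Fgf4 itself among them, and 2 rose (median -0.61). That is 50.0% and 12.5%, against 12.3% lower and 15.6% higher over all genes. With the GC trend removed 11 fell and 1 rose, where 8.70% of all genes were lower and 9.87% higher. Without day 3 library 3, 8 fell and 1 rose, where 9.01% of all genes were lower and 13.0% higher. The falling members were mostly feedback inhibitors and direct outputs of ERK. Spred1, an inhibitor of the Ras pathway, was at 137, 144 and 176 CPM on day 3 and at 57.6, 64.4 and 56.1 CPM on day 4 (-1.36 ± 0.19, adjusted p = 3.50e-05). Dusp6, the ERK phosphatase, went from 78.4, 90.5 and 99.4 CPM to 41.3, 38.6 and 32.8 CPM (-1.25 ± 0.22, adjusted p = 0.000376). Egr1, an ERK-induced factor, went from 20.3, 19.3 and 39.4 CPM to 6.01, 5.72 and 5.06 CPM (-2.22 ± 0.35). The feedback inhibitors Spry2 and Spry4 changed by -1.72 ± 0.35 and -1.39 ± 0.30, and the factor Etv5 by -0.66 ± 0.20. The receptor Fgfr2, which trophoblast stem cells use to read FGF4, rose by 1.48 ± 0.32 (adjusted p = 0.00207), and it counts in the trophectoderm list too.

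Other signalling lists had calls in both directions. Over all genes 15.6% were higher and 12.3% lower, and 9.87% and 8.70% with the GC trend removed. Without day 3 library 3 these shares were 13.0% and 9.01%. The Nodal (12.5% and 18.8%) and Hippo lists (13.6% and 13.6%) lay near the shares as fitted. Of 22 Wnt pathway genes 7 rose and 8 fell, 3 rose and 11 fell with the GC trend removed, and 6 rose and 6 fell without day 3 library 3. The ligand Wnt7b, known from the placenta, was at 0.338, 0.452 and 0 CPM on day 3 and at 7.97, 4.76 and 4.49 CPM on day 4 (4.21 ± 0.71, adjusted p = 0.000293), and the stem cell receptor Lgr5 rose by 2.73 ± 0.74. The receptor Fzd5 changed by -1.52 ± 0.35 and the target genes T (brachyury) and Sp5 by -1.98 ± 0.49 and -1.99 ± 0.54. Of 19 BMP pathway and Id genes 7 rose and 4 fell (6 and 4 with the GC trend removed, 7 and 3 without day 3 library 3). Id1 and Id3, targets of BMP signalling, rose by 1.40 ± 0.27 and 1.66 ± 0.32 beside Id2, and Bmp8b by 2.39 ± 0.47. The ligand Bmp2 changed by -3.41 ± 0.73, and the secreted BMP antagonist Grem1 by -3.01 ± 0.56. The ligand Bmp4 differed by -0.49 ± 0.31 (adjusted p = 0.245). Of 16 Nodal pathway genes 2 rose and 3 fell (2 and 4 with the GC trend removed, 2 and 1 without day 3 library 3), and Nodal itself differed by -0.38 ± 0.35 (adjusted p = 0.434). Of 22 Hippo pathway genes and YAP targets 3 rose and 3 fell, 3 and 4 with the GC trend removed, and 5 and 0 without day 3 library 3. Amot, which holds YAP outside the nucleus, was called higher (1.35 ± 0.39, adjusted p = 0.0146) from 15.7, 18.2 and 33.6 CPM to 77.4, 64.9 and 28.4 CPM, values that overlap. Its adjusted p was between 0.0601 and 0.0722 without day 3 library 1, day 3 library 2 or day 4 library 1.

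Markers of other lineages showed no common direction. Of 18 primitive and visceral endoderm genes 4 rose and 1 fell (22.2% and 5.56%, against 15.6% and 12.3% of all genes). With the GC trend removed 2 rose and 3 fell, where 9.87% of all genes were higher and 8.70% lower. Without day 3 library 3 the counts were 5 and 1 of 22. Gata6, the primitive endoderm factor, was at 4.39, 2.56 and 3.94 CPM on day 3 and at 3.53, 3.95 and 3.18 CPM on day 4 (-0.02 ± 0.42, adjusted p = 0.973), and Sox17 had too few counts to test. The rising members included Apoe (3.18 ± 0.39), which carries lipid and is made by many cell types, and Cited1 (2.87 ± 0.34), which counts as a trophectoderm product too. Fst, the activin antagonist, changed by -2.60 ± 0.34. Of 23 tested genes of the 2-cell-like state 0 passed the edgeR test in either direction, 0 had an unadjusted p under 0.05, and DESeq2 and limma-voom called 0. The edgeR counts were also 0 with the GC trend removed and without day 3 library 3. Zscan4d was at 20.1, 12.4 and 24.8 CPM on day 3 and at 7.06, 11 and 9.26 CPM on day 4. Its days did not overlap, as for 42.2% of all tested genes. Zscan4c was at 16.6, 12.7 and 20.4 CPM on day 3 and at 7.32, 15.9 and 9.98 CPM on day 4, which overlap. Members of this cluster are near-identical copies, so reads cannot be divided among them with certainty.

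Genes of fibroblasts fell. Of 26 tested feeder fibroblast markers 15 fell and none rose (median -1.64). The counts were 16 and 0 with the GC trend removed and 10 and 0 without day 3 library 3. Col3a1, a fibrillar collagen, was at 6.76, 12.7 and 13.9 CPM on day 3 and at 1.31, 0.544 and 1.16 CPM on day 4 (-3.44 ± 0.45, adjusted p = 2.20e-05). Cdh11, a cadherin of mesenchyme, went from 24.5, 32.8 and 82.7 CPM to 3.92, 0.817 and 3.33 CPM (-4.10 ± 0.49, adjusted p = 8.25e-06). Col6a1, Postn and Prrx1 changed by -2.63 ± 0.45, -3.38 ± 0.59 and -3.01 ± 0.51. Col1a1 was at 1.35, 0.603 and 0.927 CPM on day 3 and at 1.70, 0.136 and 0.723 CPM on day 4 (-0.15 ± 0.74, adjusted p = 0.899).

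Chemokines and matrix enzymes stood among the largest falls. Ccl2, a monocyte chemokine, was at 160, 157 and 304 CPM on day 3 and at 32.8, 6.94 and 17.8 CPM on day 4 (-3.43 ± 0.40, adjusted p = 6.91e-06), after means of 675 and 716 CPM on days 1 and 2. Ccl7 went from 210, 202 and 402 CPM to 37, 3.67 and 14 CPM, and the cytokine Il6 from 5.57, 13.0 and 14.6 CPM to 0.261, 0.408 and 0.579 CPM (-4.67 ± 0.62). Mmp13, a collagenase, was called lower (-3.96 ± 1.13, adjusted p = 0.0217) with 80.6, 89.2 and 351 CPM on day 3 and 27.2, 1.36 and 4.49 CPM on day 4. Its adjusted p was 0.0518 with the GC trend removed, and between 0.0544 and 0.0984 without day 3 library 3, day 4 library 2 or day 4 library 3. The other genes among the 12 largest falls were Gldn, Thbs2, Nptx1 and Akr1c18, with log2 changes of -4.34 ± 0.60, -3.93 ± 0.66, -3.73 ± 0.61 and -3.26 ± 0.77. The call of Akr1c18, a steroid dehydrogenase, was lost without day 3 library 3 (-2.59, adjusted p = 0.0592). Whether the falling chemokines were expressed by feeder cells was not tested.

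Hypoxia response genes and glycolytic enzymes rose together. These are targets of the HIF factors, which accumulate when oxygen is low and switch on glucose uptake and glycolysis. Of 24 hypoxia response genes 15 rose and 2 fell (median 1.09). The counts were 14 and 1 with the GC trend removed and 16 and 0 of 25 without day 3 library 3. Adm, which encodes the peptide adrenomedullin, was at 0.338, 0 and 0.695 CPM on day 3 and at 15.7, 10.9 and 22.3 CPM on day 4 (5.66 ± 0.59, adjusted p = 1.61e-06). Ndrg1 went from 0.845, 2.56 and 3.24 CPM to 23.7, 26.5 and 27.9 CPM (3.58 ± 0.33), and the HIF prolyl hydroxylase Egln3 from 11.8, 10.8 and 9.27 CPM to 46.1, 33.7 and 46.7 CPM (1.98 ± 0.22). The glucose transporter genes Slc2a1 and Slc2a3 rose by 1.95 ± 0.26 and 1.13 ± 0.23. Bnip3, a mitophagy receptor, rose 3.60-fold and averaged 284 CPM on day 5, with 22.3% of its exonic bases under Gm45507 on the opposite strand. Hif1a itself fell by 0.73 on the log2 scale (SE 0.27, adjusted p = 0.0460), and its adjusted p was 0.442 with the GC trend removed. The carbonic anhydrase Car9 and the demethylase Kdm3a did not pass the test (0.49 ± 0.68 and -0.10 ± 0.20).

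Of 19 glycolytic enzymes 15 rose and none fell (median 1.33), and 9 rose with the GC trend removed, 10 without day 3 library 3. Gpi1, which interconverts glucose and fructose phosphates, was at 53, 51.2 and 26.4 CPM on day 3 and at 221, 181 and 239 CPM on day 4 (2.29 ± 0.30, adjusted p = 1.98e-05). Aldoa (aldolase) went from 280, 262 and 128 CPM to 816, 728 and 882 CPM (1.85 ± 0.27). Gapdh went from 902, 637 and 165 CPM to 2710, 3370 and 4750 CPM (2.67 ± 0.43, adjusted p = 0.000171), with means of 5730 and 2520 CPM on days 1 and 2 and of 1700 CPM on day 5. Day 3 library 3 was the lowest library for all 3 enzymes. Among further members, Pgam1, Hk1, Eno1, Pfkm, Ldha and Pkm, were called higher with adjusted p between 0.0139 and 0.0455 and were not called with the GC trend removed. The hexokinase gene Hk2 differed by -0.03 ± 0.22 (adjusted p = 0.932).

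Upstream sequences are shown for Egln3, Slc2a1 and Pgk1 (phosphoglycerate kinase, 1.14 ± 0.27), because these rising genes hold ACGTG, the core of the HIF response element, for which they were picked. Each run is the 250 bases before the RefSeq start (GRCm38.p6): Egln3 at chr12:54203875-54204124 on the minus strand, Slc2a1 at chr4:119108495-119108744 and Pgk1 at chrX:106186850-106187099, both on the plus strand. Capitals mark the motif on either strand.
Egln3: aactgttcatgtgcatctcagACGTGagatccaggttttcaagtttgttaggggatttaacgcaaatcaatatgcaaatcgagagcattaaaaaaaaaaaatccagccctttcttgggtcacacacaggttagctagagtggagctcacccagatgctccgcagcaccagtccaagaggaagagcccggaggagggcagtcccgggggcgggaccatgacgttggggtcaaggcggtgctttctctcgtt
Slc2a1: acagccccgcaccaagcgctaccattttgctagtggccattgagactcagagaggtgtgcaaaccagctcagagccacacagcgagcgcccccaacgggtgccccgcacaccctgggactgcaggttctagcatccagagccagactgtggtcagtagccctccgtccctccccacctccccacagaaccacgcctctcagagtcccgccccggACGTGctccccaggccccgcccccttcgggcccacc
Pgk1: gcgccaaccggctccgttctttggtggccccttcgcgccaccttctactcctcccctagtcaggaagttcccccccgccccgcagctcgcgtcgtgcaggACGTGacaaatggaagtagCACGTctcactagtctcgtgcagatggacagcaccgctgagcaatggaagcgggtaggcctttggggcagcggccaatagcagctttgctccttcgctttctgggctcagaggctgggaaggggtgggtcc
The match begins 229 bases before the start of Egln3 and 36 before that of Slc2a1, and the matches of Pgk1 begin 150 and 131 bases before its start. Of 32 promoter windows of the hypoxia list 18 held the core on either strand (56.2%), as did 10 of 30 of the glycolytic list (33.3%) and 16.6% of 32851 windows of all genes. Letters in a window are no evidence of a bound site, and many members of the hypoxia list are known as HIF targets.

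**Figure D4:**
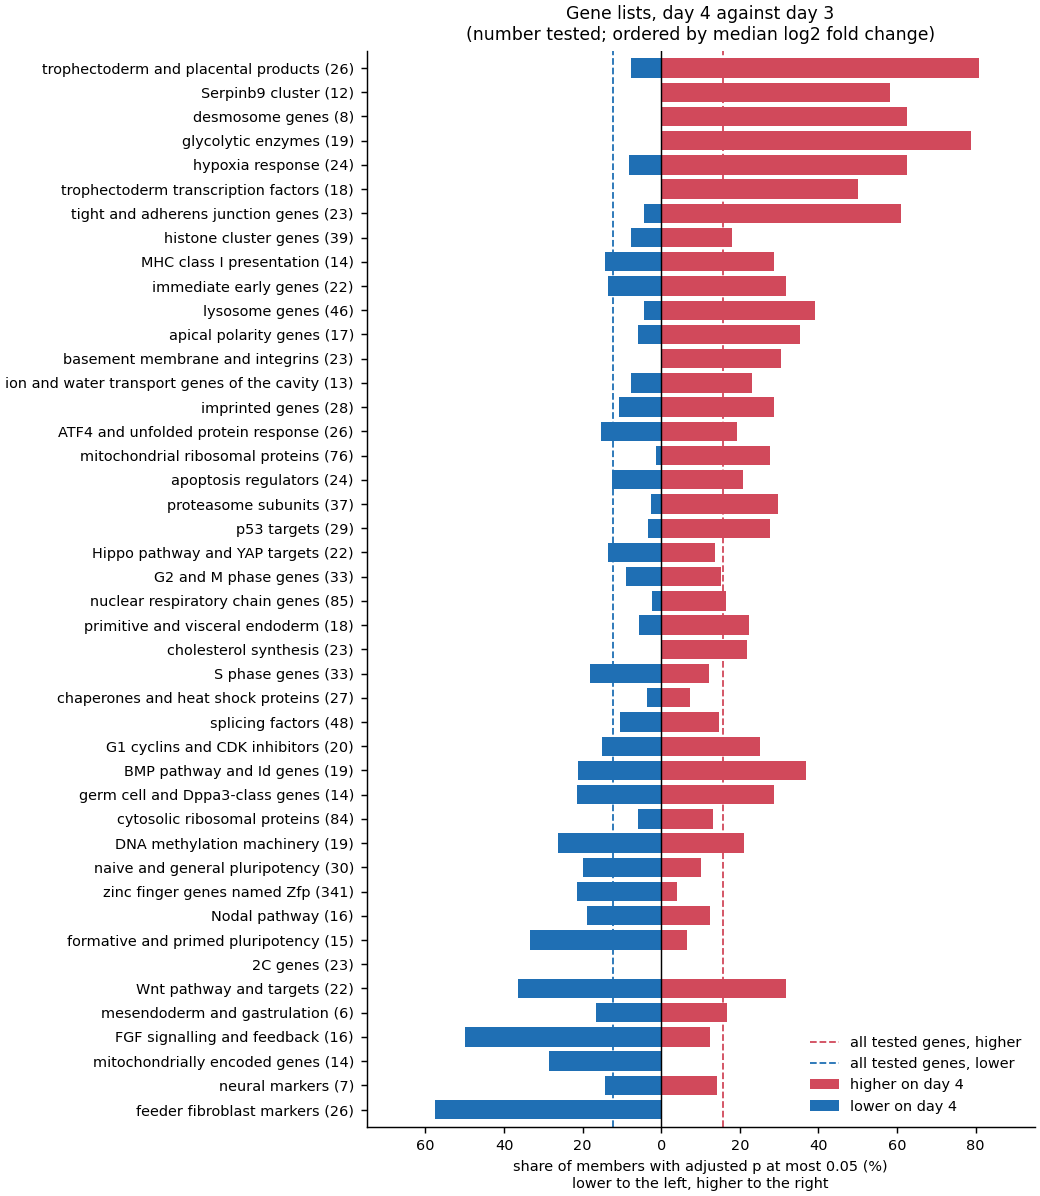
Share of the tested members of each of 44 gene lists called at an adjusted p of at most 0.05, higher on day 4 to the right (red) and lower to the left (blue), in percent on the x axis. Lists are ordered by median log2 fold change with the number tested in brackets, and dashed lines mark the shares over all tested genes (15.6% higher and 12.3% lower). Trophectoderm and placental products and glycolytic enzymes have the longest bars to the right (80.8% and 78.9%), and feeder fibroblast markers to the left (57.7%).

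Stress gene lists had calls in both directions, to be read against 15.6% higher and 12.3% lower over all genes. Of 29 p53 targets 8 rose and 1 fell (27.6% and 3.45%). The counts were 9 and 0 with the GC trend removed, and 7 and 2 without day 3 library 3. Btg2, an antiproliferative target, was at 19.6, 17.2 and 14.8 CPM on day 3 and at 86.4, 61.6 and 73.5 CPM on day 4 (2.10 ± 0.21, adjusted p = 1.13e-06). Plk3 and Phlda3 rose by 3.03 ± 0.37 and 3.11 ± 0.45. The CDK inhibitor Cdkn1a (p21) was at 62.0, 53.5 and 15.5 CPM on day 3 and at 133, 107 and 151 CPM on day 4 (1.57 ± 0.33, adjusted p = 0.00157). Its exons overlap AC167363.2 on the opposite strand over 7.68% of their length. Pmaip1 (Noxa) fell by 0.92 on the log2 scale (adjusted p = 0.0710 with the GC trend removed), and Trp53 itself differed by 0.80 ± 0.36 (adjusted p = 0.105). Mdm2, the p53 ligase and target, was called higher (0.58 ± 0.20, adjusted p = 0.0359), and its adjusted p was between 0.0513 and 0.113 with any library but day 3 library 3 left out.

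Of 26 genes of the ATF4 and unfolded protein response 5 rose and 4 fell (19.2% and 15.4%, against 15.6% and 12.3% of all genes). The counts were 3 and 3 with the GC trend removed, and 7 and 4 of 28 without day 3 library 3. Ddit3 (CHOP) went from 7.26, 7.68 and 4.64 CPM to 59.2, 30.3 and 52.1 CPM (2.83 ± 0.28, adjusted p = 7.64e-07), and the stress factor Atf3 from 0.676, 1.51 and 0.464 CPM to 6.01, 9.93 and 4.63 CPM (2.85 ± 0.39), with a mean of 64.3 CPM on day 5. Of 22 immediate early genes 7 rose and 3 fell (31.8% and 13.6%), but 4 and 5 with the GC trend removed. Without day 3 library 3 the counts were 8 and 3 of 23. Ier3 rose by 3.26 ± 0.34, while Egr1 was among those that fell. Gadd45b and Gadd45g, stress-induced relatives that act on p38 kinase signalling, stood among the large rises: Gadd45b went from 5.07, 5.72 and 1.62 CPM to 67.0, 53.3 and 72.6 CPM (3.90 ± 0.30), and Gadd45g from 0.507, 0.301 and 1.16 CPM to 17.6, 23.5 and 20.4 CPM (5.04 ± 0.43). Of 24 apoptosis regulators 5 rose and 3 fell (20.8% and 12.5%, near the shares of all genes). The counts were 4 and 0 with the GC trend removed, and 4 and 2 of 25 without day 3 library 3. Bik, a killer protein of the BH3-only class, had 0 counts on day 3 and 47 on day 4, at least 12.1-fold higher against a floor of 3 counts over the 3 libraries.

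Cell cycle lists had calls in both directions, at shares to be read against 15.6% higher and 12.3% lower over all genes. Of 33 S phase genes 4 rose and 6 fell, 2 and 2 with the GC trend removed, and 2 and 5 without day 3 library 3. Of 33 G2 and M phase genes 5 rose and 3 fell, 3 and 0 with the GC trend removed, but 1 and 4 without day 3 library 3. Among 20 G1 cyclins and CDK inhibitors 5 rose and 3 fell, 5 and 5 with the GC trend removed, and 6 and 4 of 21 without day 3 library 3. Cdkn1c (p57), the imprinted CDK inhibitor of trophoblast giant cells, was at 4.90, 5.87 and 5.56 CPM on day 3 and at 51.2, 34.8 and 35.7 CPM on day 4 (2.89 ± 0.30, adjusted p = 1.63e-06), with a mean of 115 CPM on day 5. Gm44732 on the opposite strand overlaps 30.7% of its exonic bases, so its level is uncertain. Mycn, a proto-oncogene of stem cells, went from 47.5, 57.4 and 53.5 CPM to 16.9, 17.4 and 13.0 CPM (-1.74 ± 0.30). Neither gene overlapped between the days, as for 42.2% of all tested genes.

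Imprinted genes are expressed from 1 parental copy, and several act in the placenta. Of 28 tested 8 rose, 3 fell and 17 did not pass the test. Rises were 28.6% and falls 10.7%, against 15.6% and 12.3% of all genes. The counts were 7 higher and 1 lower with the GC trend removed, and 9 and 1 of 30 without day 3 library 3. Peg10, a retrotransposon-derived gene needed for the placenta, went from 52.4, 74.6 and 58.6 CPM to 277, 312 and 267 CPM (2.21 ± 0.31). Peg3 went from 39.9, 56.9 and 58.4 CPM to 195, 134 and 120 CPM (1.54 ± 0.31), and Sfmbt2 and Phlda2 rose by 1.47 ± 0.32 and 1.92 ± 0.41. Rian and Meg3, non-coding RNAs of 1 locus, changed by -1.12 ± 0.27 and -1.16 ± 0.37, and with the GC trend removed the adjusted p of Rian was 0.502. Of 12 tested genes of the Serpinb9 cluster, protease inhibitors of which several are known from trophoblast, 7 rose and none fell (8 with the GC trend removed, 4 without day 3 library 3). Serpinb9b was at 13.9, 17.3 and 10.2 CPM on day 3 and at 45.3, 49.8 and 49.6 CPM on day 4 (1.79 ± 0.33). Serpinb9g had 1 count on day 3 and 82 on day 4, a ratio of 63.1 with a 95% counting interval from 11 to 2520. Genes of this cluster are close copies of each other. Of 23 basement membrane and integrin genes 7 rose and none fell, as without day 3 library 3, but with the GC trend removed none rose and 3 fell.

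Day 5 was compared with day 2 in the same fit, a pair of days that shares no library with days 3 and 4. Of the 15121 genes 3430 were higher on day 5 than on day 2 and 3439 lower (22.7% each, 45.4% in either direction). Of the 2361 genes higher on day 4 than day 3, 718 (30.4%) were higher and 599 (25.4%) lower on day 5 than day 2, with a median log2 fold change of 0.04. Of the 1863 genes lower on day 4, 280 (15%) were higher and 742 (39.8%) lower, with a median of -0.43. With the GC trend removed in both comparisons, 684 of the 1493 higher genes (45.8%) were higher and 258 (17.3%) lower (median 0.55). Of the 1316 lower genes 174 (13.2%) were higher and 616 (46.8%) lower (median -0.71), against 23.7% and 23.4% of all genes.

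The lists divided in this second comparison. Of the trophectoderm and placental products 18 were higher and 6 lower on day 5 than day 2, of the tight and adherens junction genes 19 and 0, of the desmosome genes 7 and 0, and of the hypoxia response genes 20 and 1. Of the feeder fibroblast markers none were higher and 19 lower. Krt18 differed by 3.33, Gata2 by 4.92, Plac1 by 6.25 and Adm by 4.32 on the log2 scale between day 2 and day 5, all higher on day 5. Glycolytic enzymes were higher in 8 of 19 cases, and Gapdh differed by -0.57 (adjusted p = 0.257). Sox15 was higher on day 4 than day 3 and lower on day 5 than day 2 (-1.14, adjusted p = 0.00899). Mitochondrial ribosomal proteins, of which 21 of 76 were higher and 1 lower on day 4, were higher in 2 cases and lower in 48 on day 5. With the GC trend removed 11 of the 76 were higher on day 4 and none lower, and without day 3 library 3 the counts were 17 and 6.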

How the data were processed

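RNA-seq counts per gene were used as the authors deposited them, whole numbers not normalized, in 1 table of 15 blastoid libraries. Reads were aligned with STAR 2.7.10b and counted with HTSeq 0.13.5 on mm10, per the submitters' processing notes; no source used here gives the annotation release or strand setting. Each sample's description names the table of the other experiment, so columns were matched by sample title. Genes with too few counts (edgeR filterByExpr, minimum 10, total 15) were left out. The 15 libraries were scaled by trimmed mean of M values. They were tested with edgeR 4.0.16 (quasi-likelihood F-test, days as groups, no covariate, R 4.3.3) and adjusted over 15121 genes. Log2 fold changes are those of that fit, with edgeR's default prior count. Each SE was derived from the test, as the absolute log2 fold change over the square root of its F statistic. A prior count of 2 entered only the log2 levels behind the GC difference, the GC trend and the correlations between libraries. The biological coefficient of variation was 0.258. Gene GC content, coordinates and overlaps came from GENCODE M21, matched by symbol (53663 of 54352 matched once).

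Genes were named by rule: the 12 largest changes per direction (adjusted p at most 0.05, at least 10 CPM on the higher day, no overlap between days, no numbered models), the 3 smallest p per list, and a fixed set of 20. Other list members named in the text were chosen after their values were seen. The comparison, the 44 lists and the motifs were chosen with earlier results of these data known. In all, 76 genes are in more than 1 list, so the lists are not separate observations. Among them, Utf1, Slc2a3, Wnt7b, Bmp8b and Peg10 also count as trophectoderm and placental products. Lists are described by counts and medians, with no set test. Replicate pairs within a day differed by more than counting error (chi-square per degree of freedom 9.63 to 75.7). Alternatives were other scalings (RLE, total counts, no mitochondrially encoded genes), filters, GC trend removal (lowess, span 0.3) and a replicate block. Further ones were the 6 libraries alone, thinning to the smallest library, each library left out, DESeq2 1.42.0 and limma-voom 3.58.1. The main script was tested on simulated data of 14516 genes.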

Additional observations from a re-analysis of the deposited data

How the results depend on the processing

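Calls that were made under another setting never had the opposite direction in the 19 settings compared over all genes, but their number varied. Higher and lower genes numbered 2361 and 1863 as fitted. Higher genes were 1493 with the GC trend removed. With the replicate number as a block they were 2058 and 1510, and with block and GC removal together 1267 and 1081. The labels do not state that the numbers pair the samples. Same-numbered libraries of days 3 and 4 had correlations of -0.15, -0.03 and -0.22 between their deviations from the day means. Differently numbered libraries had correlations from -0.06 to 0.20. Deviations centred on 3 libraries cannot show whether samples are paired. Whether the smaller block counts reflect pairing was not tested. Lower genes were 1074 in a fit of the 6 libraries alone and 1134 at a log2 change of at least 1. Leaving out each library in turn gave 1593 to 2505 higher and 956 to 2086 lower genes. GC removal and leaving out day 3 library 3 together, chosen after seeing the data, gave 1363 and 1217. DESeq2 called 2351 and 2444 genes, limma-voom 2395 and 1804, edgeR with no filter on low counts 2389 and 1442. Of 160 tested named genes 28 lost their call and 3 gained one with the GC trend removed. Plk1 was higher as fitted (0.90) and at -0.06 (adjusted p = 0.855) with GC removal and without day 3 library 3. The cause was not tested. Of 44 list medians 21 moved with GC removal and 4 with total-count scaling. Day 5 against day 2 gave 2797 to 3288 higher and 2737 to 3315 lower genes with a library left out. Thinning all libraries to the smallest gave 1913 and 1576 genes. In counts simulated at these depths and this spread, 4.48% of 1.5-fold, 19.4% of 2-fold and 72.7% of 4-fold changes were recovered. Only 67, 67 and 66 of 14516 genes were changed by these folds, whereas 27.9% of genes were called in the data. The simulation also held no GC trend by day and no library that stood apart. These shares are therefore not the recovery in the data themselves.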

Other observations

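Of 341 tested zinc finger genes named Zfp, 73 were lower and 14 higher than on day 3 (21.4% and 4.11%, against 12.3% and 15.6% of all genes), with a median log2 fold change of -0.31. Their median GC content was 43.2%, against 48.5% over all tested genes, and with the GC trend removed 23 were lower and 11 higher with a median of -0.02, where 8.70% of all genes were lower and 9.87% higher. Without day 3 library 3, 60 of 348 were lower and 12 higher. Zfp981 was at 273, 301 and 465 CPM on day 3 and at 100, 111 and 111 CPM on day 4 (-1.69 ± 0.24, edgeR adjusted p = 5.84e-05). Zfp987 went from 193, 218 and 383 CPM to 88.1, 75.3 and 67.0 CPM (-1.78 ± 0.31). Both belong to a cluster of near-identical copies, so their reads may be divided uncertainly, and both remained lower with the GC trend removed (-0.77 and -0.78).

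Of 46 tested lysosome genes 18 were higher and 2 lower (39.1% and 4.35%, against 15.6% and 12.3% of all genes), and 26 did not pass the test. There were 13 higher and 1 lower with the GC trend removed (9.87% and 8.70% of all genes), and without day 3 library 3 the counts were 17 and 2. The differences from all genes were not tested. Ctsa, a lysosomal protease, went from 11.7, 10.1 and 16.5 CPM to 42.9, 50.4 and 62.1 CPM (2.03 ± 0.34). The proton pump subunits Atp6v0b and Atp6v0d1 rose by 1.74 ± 0.25 and 1.34 ± 0.24. On day 5 against day 2 the list had 7 higher and 5 lower members.

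Several housekeeping lists moved differently between settings. Their counts are to be read against all genes: 15.6% higher and 12.3% lower as fitted, 9.87% and 8.70% with the GC trend removed. Without day 3 library 3 these shares were 13.0% and 9.01%. As fitted, 16.5% of respiratory chain, 13.1% of cytosolic ribosomal and 14.6% of splicing genes were higher, near the share of all genes. Lower genes were 2.35%, 5.95% and 10.4% of these lists. Of 85 nuclear respiratory chain genes 14 were higher and 2 lower on day 4, but 5 and 5 with the GC trend removed and 13 and 11 without day 3 library 3. Ndufs7, a subunit of complex I, was at 28.0, 17.2 and 3.71 CPM on day 3 and at 123, 130 and 157 CPM on day 4. Of 84 cytosolic ribosomal protein genes 11 were higher and 5 lower, but 2 and 13 with the GC trend removed and 8 and 17 without day 3 library 3. Rps4l rose by 2.10 ± 0.31 and Rpl39l changed by -1.65 ± 0.25. Of 48 splicing factors 7 were higher and 5 lower, 8 and 1 with the GC trend removed, and 6 and 12 without day 3 library 3. Sf3b5, a subunit of the complex that PlaB binds, went from 102, 77.0 and 40.3 CPM to 182, 166 and 177 CPM (1.26 ± 0.25).

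The lists that follow are to be read against the same shares of all genes, 15.6% higher and 12.3% lower as fitted. Those shares were 9.87% and 8.70% with the GC trend removed, and 13.0% and 9.01% without day 3 library 3. Differences from them were not tested. Of 14 mitochondrially encoded genes 4 were lower and none higher (median -0.85). The median was -0.04 with no calls when the GC trend was removed, and 1 gene was lower without day 3 library 3. mt-Nd1 was at 13400, 9870 and 32300 CPM on day 3 and at 6890, 8790 and 6560 CPM on day 4 (-1.32 ± 0.39, adjusted p = 0.0169). It was at -0.65 (adjusted p = 0.121) without day 3 library 3, and its adjusted p was 0.0520 and 0.0717 without day 4 library 1 or 3. Of 37 proteasome subunits 11 were higher and 1 lower (6 and 1 with the GC trend removed, 8 and 2 without day 3 library 3). Of 23 cholesterol synthesis genes 5 were higher and 0 lower (3 and 1, and 4 and 1, in the same settings). Of 39 histone cluster genes 7 were higher and 3 lower, 3 and 1 with the GC trend removed, but 3 and 4 of 41 without day 3 library 3. Of 27 chaperones 2 were higher and 1 lower (4 and 0 with the GC trend removed, 5 and 3 without day 3 library 3), with Hspb1 rising from 125, 87.1 and 22.9 CPM to 490, 648 and 700 CPM. Of 14 MHC class I presentation genes 4 were higher and 2 lower (1 and 2 with the GC trend removed, 5 and 2 without day 3 library 3), and B2m went from 454, 451 and 653 CPM to 358, 184 and 216 CPM (-1.04 ± 0.28). The adjusted p of B2m was 0.155 with the GC trend removed, 0.0577 without day 4 library 2 and 0.0528 without day 4 library 3. Of 19 genes of the DNA methylation machinery 4 were higher and 5 lower (1 and 7 with the GC trend removed, 4 and 5 without day 3 library 3), and Tet1, which oxidises 5-methylcytosine, went from 416, 474 and 660 CPM to 204, 252 and 230 CPM (-1.18 ± 0.22). Of 14 germ cell genes 4 were higher and 3 lower (2 and 0 with the GC trend removed, 3 and 3 without day 3 library 3). Of 7 neural markers 1 was higher and 1 lower (0 and 1, and 1 and 1 of 8, in the same settings), and of 6 mesendoderm genes 1 and 1 (1 and 3, and 1 and 1 of 8).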
